A study of Mus musculus with 12 samples.

Results

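Matrix proteases, the plasminogen activators and the tissue inhibitors of metalloproteinases (Timps) were described across 12 lactating mammary glands of mice with and without butyrophilin 1a1 (Btn1a1). The genes were taken by name from a list of 10, and 9 of the 10 were among the 11834 genes of the deposited table: Timp1, Timp2, Timp3, Mmp2, Mmp14, Adamts1, Plau, Plat and Plaur. Mmp11 had no row in the table and was not analysed here. The polyA RNA of whole mammary tissue was sequenced, with 1 library per mouse, all of strain C57BL/6 and all in lactation 1. The 5 wild-type (WT) mice gave 3 libraries on day 10, 1 on day 9 (WT replicate 2) and 1 on day 11 (WT replicate 3). The 7 knockout (KO) mice, of genotype Btn1a1-/-, gave 5 libraries on day 10, 1 on day 8 (KO replicate 3) and 1 on day 11 (KO replicate 4). Per the labels, the mutant line was kept by mating heterozygotes and the wild-type mice were bred apart from it, and the mice had either of 2 diets that are not given per mouse. Genotype, breeding line and diet therefore cannot be told apart in any comparison here. Btn1a1 itself was at 11.07 ± 0.09 log2 CPM in WT (SD, n = 5) and 5.63 ± 0.30 in KO (SD, n = 7), with no overlap between the groups. WT replicates 1, 2, 4 and 5 held the same Btn1a1 value, 11.03, and WT replicate 3 was at 11.23, so the WT SD rests on that library. The values were quantile-normalized between libraries, which gives a gene of equal rank an equal value.

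Matrix metalloproteinases (MMPs) are zinc enzymes that cut collagens, laminins and other proteins outside the cell, and the Timps bind and block them. Mmp2 is a secreted gelatinase, Mmp14 is a membrane-anchored MMP that activates the Mmp2 proenzyme with the help of Timp2, and Adamts1 is a secreted protease that cuts proteoglycans. Plau (urokinase) and Plat (tissue plasminogen activator) turn plasminogen into plasmin, and Plaur is the cell-surface receptor of urokinase. In the mammary gland these proteases are known for the remodelling of the basement membrane and stroma when the gland involutes after weaning.

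The values are log2 CPM, the reads of a gene as a share of those in its library on a log2 scale, which the authors had quantile-normalized between libraries. The table holds no counts. The depth, estimated roughly from the steps between neighbouring low values, ran from 17.1 to 30.4 M reads in WT and from 23.2 to 34.7 M in KO. A gene was called when limma gave an adjusted p under 0.05 over all 11834 genes. By this rule 1108 genes were called (9.36%), 573 of them higher in KO (4.84%) and 535 lower (4.52%).

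Of the 9 measured genes 1 rose in KO, 0 fell and 8 did not pass, beside 9.36% of all genes called. The gene that rose was Timp1, 1.90-fold. The log2 change was positive for 7 of the 9 genes, with a median of 0.29, beside a median of -0.03 over all genes. An unadjusted p under 0.05 was reached by 5 of the 9 (55.6%), all with a higher mean in KO, beside 26.6% of all genes. These 5 were Timp1, Timp2, Plau, Plaur and Adamts1.

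**Figure D1:**
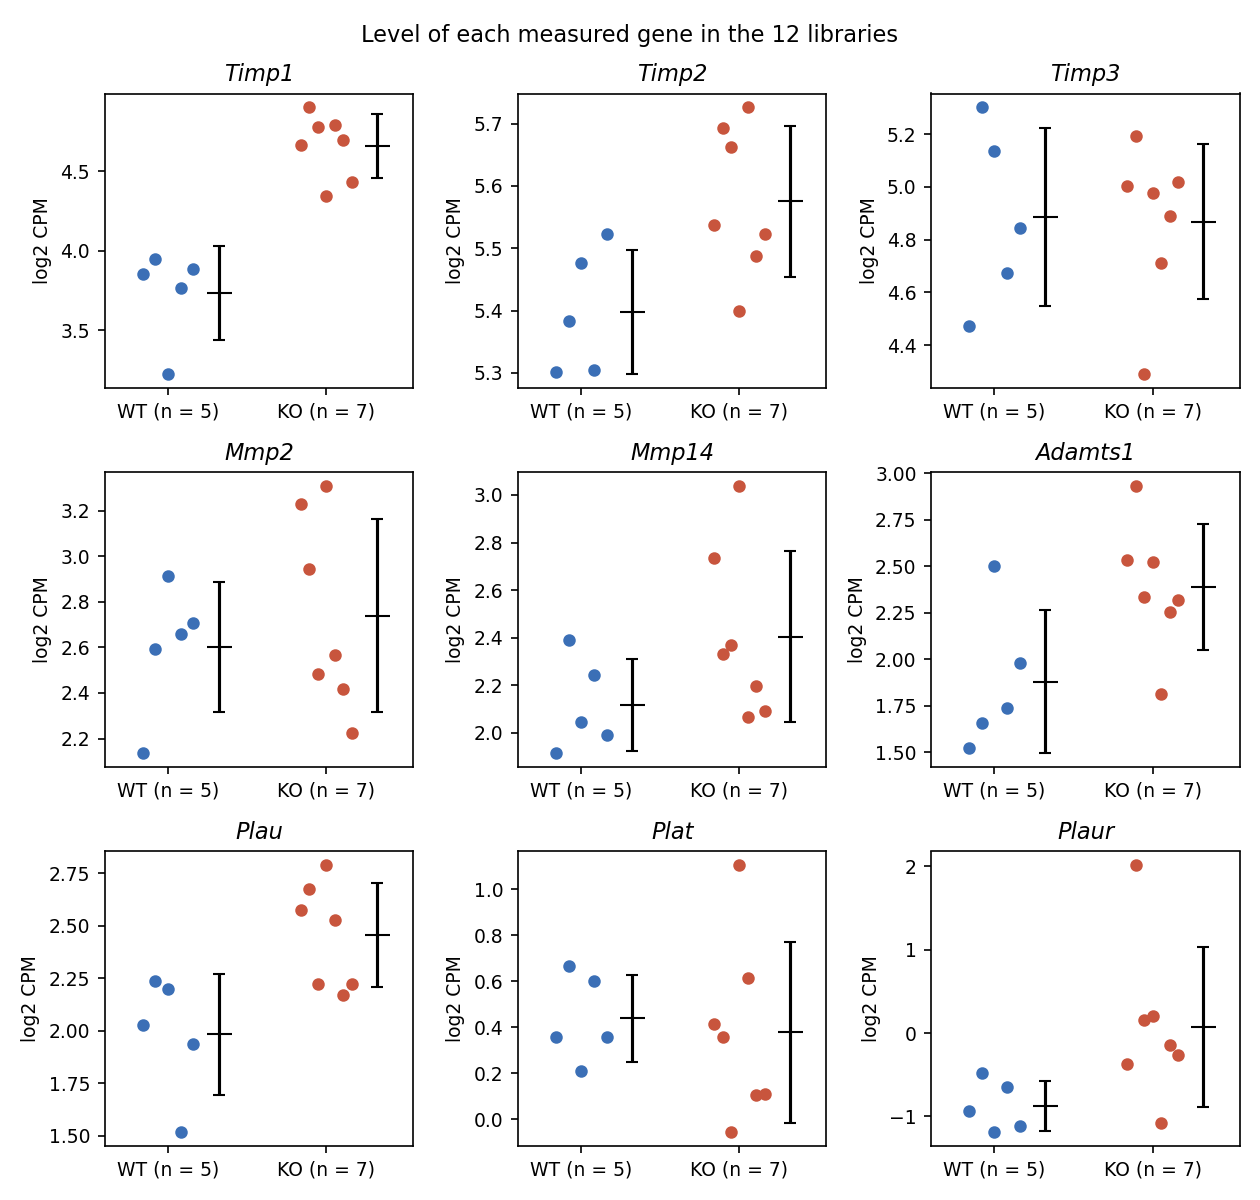
Level of each of the 9 genes in log2 CPM (vertical axis, a separate range for each panel) in the 5 WT and 7 KO libraries. Points are libraries in order of replicate number, and the bars beside them are the mean ± SD. The Timp1 panel alone shows no overlap between the groups, and the highest Plaur point is KO replicate 2.

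Timp1 encodes a secreted inhibitor of many MMPs and lies at chrX:20870166-20874735 (mm10, plus strand). Its level in WT replicates 1 to 5 was 3.85, 3.95, 3.22, 3.76 and 3.88 log2 CPM. The 7 KO libraries ran from 4.34 (KO replicate 4) over a median of 4.70 to 4.91 (KO replicate 2). Every KO library lay above every WT library, a separation that 2.69% of all genes showed in this direction and 2.74% in the other. The log2 change was 0.93 (SE 0.13, 95% confidence interval 0.65 to 1.20, limma adjusted p = 0.00188). The exact two-sided permutation p of 0.00126 is the smallest that 7 and 5 libraries can give. WT replicate 3, taken on day 11, stood below the other WT libraries, and without it the log2 change was 0.80 (limma adjusted p = 0.00162). With day 10 libraries alone the change was 0.87 (limma adjusted p = 0.0066), and in the authors' deposited table it is 0.92 (adjusted p = 0.00283). Timp1 lies within Syn1 on the other strand, but no exons of the pair overlap in the annotation.

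Marker scores of other cell types were set beside the Timp1 change, and the groups overlapped in each score. The 13 macrophage markers, all in the table, had a score (mean log2 CPM of the list minus the WT mean) of -0.10 to 0.135 in WT and of 0.03 to 0.58 in KO, where 6 of 7 libraries lay above all WT libraries. With this score as a covariate the Timp1 change was 0.81 and its call ended (limma adjusted p = 0.331). In that fit 1 gene of the whole table was called. The 10 basal and myoepithelial markers scored -0.24 to 0.20 in WT and -0.03 to 0.58 in KO, and with that covariate the Timp1 change was 1.07 (limma adjusted p = 0.0281). With the score of 15 skeletal muscle markers (-1.59 to 1.02 in WT, -1.14 to 2.84 in KO) the Timp1 change was 1.02 (limma adjusted p = 0.0031). With that of 12 fibroblast markers (-0.35 to 0.29 in WT, -0.08 to 0.63 in KO) it was 1.06 (limma adjusted p = 0.00185). None of 7 neutrophil markers was in the table. In whole tissue, more cells of a type and more RNA per cell cannot be told apart.

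The other Timps showed no such separation. Timp2, the inhibitor that also takes part in Mmp2 activation, lies at chr11:118301069-118355740. It was at 5.30, 5.38, 5.48, 5.31 and 5.52 log2 CPM in WT replicates 1 to 5 and from 5.40 over a median of 5.54 to 5.73 in KO. In KO, 4 of 7 libraries lay above all WT libraries. KO exceeded WT by a log2 change of 0.18 (SE 0.07, 95% interval 0.02 to 0.33, limma adjusted p = 0.132).

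Timp3, which is held in the extracellular matrix and also inhibits ADAM and ADAMTS proteases, lies at chr10:86300372-86349506. It was at 4.47, 5.30, 5.14, 4.67 and 4.85 log2 CPM in WT replicates 1 to 5, and from 4.29 over a median of 4.98 to 5.19 in KO. The ranges of the groups overlapped almost whole, and the lowest value of all was that of KO replicate 3, taken on day 8. The log2 change was -0.02 (SE 0.16, 95% interval -0.36 to 0.33, limma adjusted p = 0.959). Its direction turned in several alternatives, up to 0.30 with day 10 libraries alone (limma adjusted p = 0.178). Exons of Timp3 overlap Syn3 on the other strand, and because the strand setting of the counting is not stated in the labels, reads of the pair cannot be told apart.

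Timp4, the remaining member of the Timp family, was named after its values were seen. Its level was 2.70 log2 CPM in WT and 2.66 in KO (log2 change -0.04, SE 0.17, limma adjusted p = 0.894).

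The MMPs did not pass the test. Mmp2, at chr8:92827291-92853420, was at 2.14, 2.59, 2.91, 2.66 and 2.71 log2 CPM in WT replicates 1 to 5 and from 2.22 over a median of 2.57 to 3.31 in KO. The KO libraries spread to both sides of the WT mean, with KO replicates 1, 2 and 4 above all WT libraries at 3.23, 2.95 and 3.31. The same libraries had the highest fibroblast marker scores, 0.39, 0.40 and 0.63. They also had the highest scores of 8 luminal epithelial markers, 0.53, 0.65 and 0.42. The part of these cells in the Mmp2 level was not tested apart from the covariate fits, none of which used the luminal score. The log2 change of Mmp2 was 0.14 (SE 0.19, 95% interval -0.28 to 0.55, limma adjusted p = 0.693), and with the fibroblast score as a covariate it was -0.15 (limma adjusted p = 0.652). It was -0.079, -0.36 and -0.18 with the muscle, macrophage and basal scores (limma adjusted p = 0.861, 0.790 and 0.766).

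Mmp14, at chr14:54431612-54445364, was at 1.91, 2.39, 2.05, 2.24 and 1.99 log2 CPM in WT replicates 1 to 5. In KO it ran from 2.06 over a median of 2.33 to 3.04, with KO replicates 1 and 4 above all WT libraries. Mmp14 had a log2 change of 0.29 (SE 0.16, 95% interval -0.06 to 0.64, limma adjusted p = 0.278), and without KO replicate 4 it was 0.18 (limma adjusted p = 0.438).

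Adamts1, at chr16:85793827-85803113, was at 1.52, 1.66, 2.50, 1.74 and 1.98 log2 CPM in WT replicates 1 to 5 and from 1.81 over a median of 2.33 to 2.93 in KO. WT replicate 3 lay among the KO libraries, and KO replicate 5 lay among the WT libraries. The log2 change was 0.51 (SE 0.19, 95% interval 0.11 to 0.91, limma adjusted p = 0.102). It passed the threshold without WT replicate 3 (0.66, limma adjusted p = 0.0390) or without KO replicate 5 (0.60, limma adjusted p = 0.0417). Without KO replicate 2 the change was 0.42 (limma adjusted p = 0.174). It was 0.14 with the basal and myoepithelial score as a covariate (limma adjusted p = 0.806), 0.29 with the fibroblast score (limma adjusted p = 0.426) and 0.30 with the macrophage score (limma adjusted p = 0.855).

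**Figure D2:**
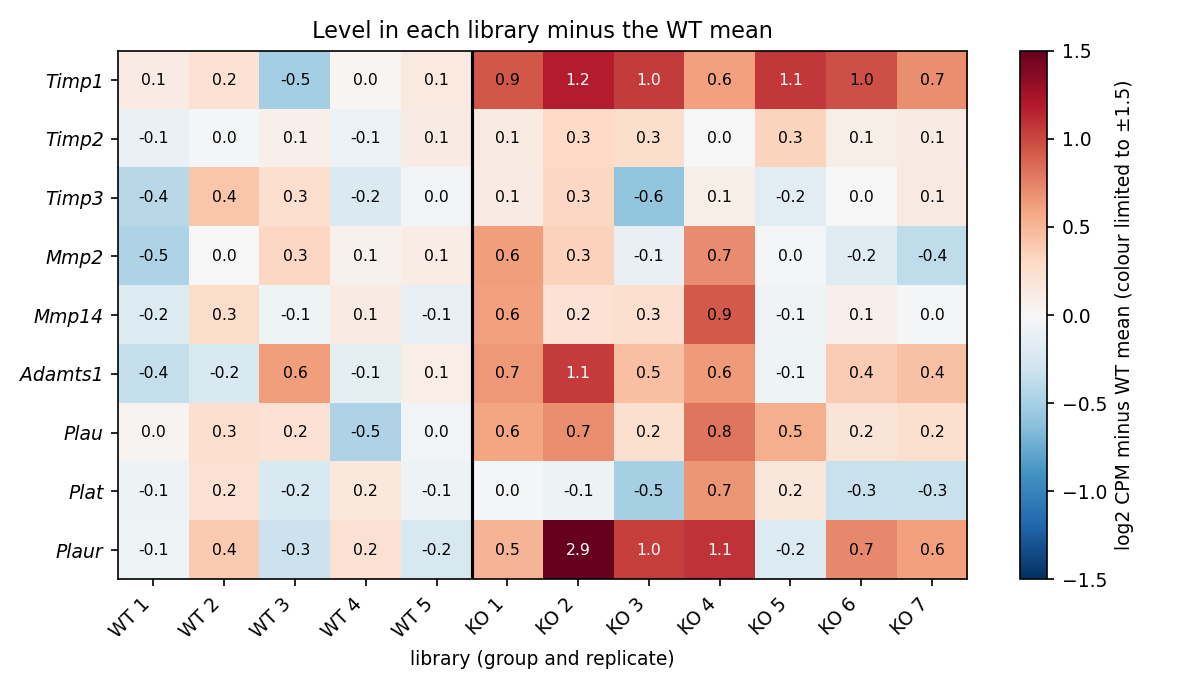
Level of each gene (rows) in each of the 12 libraries (columns) minus the WT mean, in log2 CPM, with WT left and KO right of the black line. The Timp1 row is higher in all 7 KO libraries, while the Mmp2 and Mmp14 rows are highest in KO replicates 1 and 4, and the Plaur row is highest in KO replicate 2.

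In the plasminogen system, urokinase lay close to the threshold. Plau, at chr14:20836660-20843385, was at 2.03, 2.24, 2.20, 1.52 and 1.94 log2 CPM in WT replicates 1 to 5 and from 2.17 over a median of 2.53 to 2.79 in KO. All 7 KO libraries lay above the WT mean, 4 of them above all WT libraries. The log2 change was 0.47 (SE 0.15, 95% interval 0.16 to 0.79, limma adjusted p = 0.0563), and the authors' deposited table gives 0.45 (adjusted p = 0.0646). It passed with lactation day as a covariate (0.49, limma adjusted p = 0.0457), after cyclic loess (0.51, limma adjusted p = 0.0494), without KO replicate 3 (0.51, limma adjusted p = 0.0479) and without KO replicate 6 (0.52, limma adjusted p = 0.0380). The result is therefore at the limit of what these 12 libraries resolve, and with other single libraries left out the adjusted p reached 0.126. Plau was called in no fit that held a marker score. Adjusted for muscle or macrophage markers, its log2 change fell to 0.42 and 0.32 (limma adjusted p = 0.195 and 0.788). For basal and for fibroblast markers it was 0.34 each time (limma adjusted p = 0.445 and 0.263).

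Plat, at chr8:22757727-22782844, gave no such difference. Its level was 0.36, 0.66, 0.21, 0.60 and 0.36 log2 CPM in WT replicates 1 to 5 and ran from -0.06 over a median of 0.36 to 1.10 in KO. KO libraries lay both above and below the WT range. KO minus WT was -0.06 on the log2 scale (SE 0.21, 95% interval -0.50 to 0.38, limma adjusted p = 0.883).

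Plaur, at chr7:24462484-24475968, was the least abundant of the 9 genes on the log2 CPM scale. It was at -0.93, -0.48, -1.19, -0.64 and -1.12 log2 CPM in WT replicates 1 to 5. In KO it ran from -1.08 (KO replicate 5) over a median of -0.15 to 2.02 (KO replicate 2), and 6 of 7 KO libraries lay above all WT libraries. Its log2 change of 0.95 was as large as that of Timp1, but with an SE of 0.41 (95% interval 0.08 to 1.82, limma adjusted p = 0.152). Without KO replicate 2 the change was 0.63 (limma adjusted p = 0.201), and with the macrophage score as a covariate it was 0.24 (limma adjusted p = 0.955).

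Differences between genes were also taken within each library. Quantile normalization moves each rank by its own amount, so these differences depend on it too. Timp1 minus Timp3 was -1.15 ± 0.50 log2 in WT (SD, n = 5) and -0.21 ± 0.39 in KO (SD, n = 7), and 6 of 7 KO libraries lay above all WT libraries. Timp1 minus Mmp2 was 1.13 ± 0.52 in WT and 1.92 ± 0.49 in KO, and Timp1 minus Mmp14 was 1.62 ± 0.31 in WT and 2.25 ± 0.49 in KO. In both, 5 of 7 KO libraries lay above all WT libraries, and the lowest KO library, at 1.03 and 1.31, lay within the WT range. Plau minus Plat was 1.54 ± 0.39 in WT and 2.08 ± 0.22 in KO, and here too 5 KO libraries exceeded the highest WT library. These differences combine chosen genes and were not tested.

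Per length of exon, the means of the 3 inhibitors stood above those of the proteases and of Plaur in both groups. Single KO libraries of Timp3, Mmp2 and Plau overlapped. Lengths were the union of all exons annotated for a gene, which overstates the transcript of genes with several isoforms. In WT, Timp1 was at 15.2 ± 2.73 CPM per kb (SD, n = 5), Timp2 at 10.8 ± 0.754 and Timp3 at 3.71 ± 0.866. Mmp2 followed at 1.83 ± 0.337, Plau at 1.70 ± 0.312, Mmp14 at 0.733 ± 0.101, Adamts1 at 0.715 ± 0.210, Plat at 0.219 ± 0.0288 and Plaur at 0.212 ± 0.0454. The WT libraries overlapped for the neighbours Timp1 and Timp2, Mmp2 and Plau, Mmp14 and Adamts1, and Plat and Plaur, so the order within these pairs was not resolved. In KO, Timp1 was at 28.7 ± 3.87 CPM per kb (SD, n = 7) and Timp2 at 12.3 ± 1.02. The lowest KO library of Timp1, at 22.9 CPM per kb, lay above the highest of Timp2, at 13.6.

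**Figure D3:**
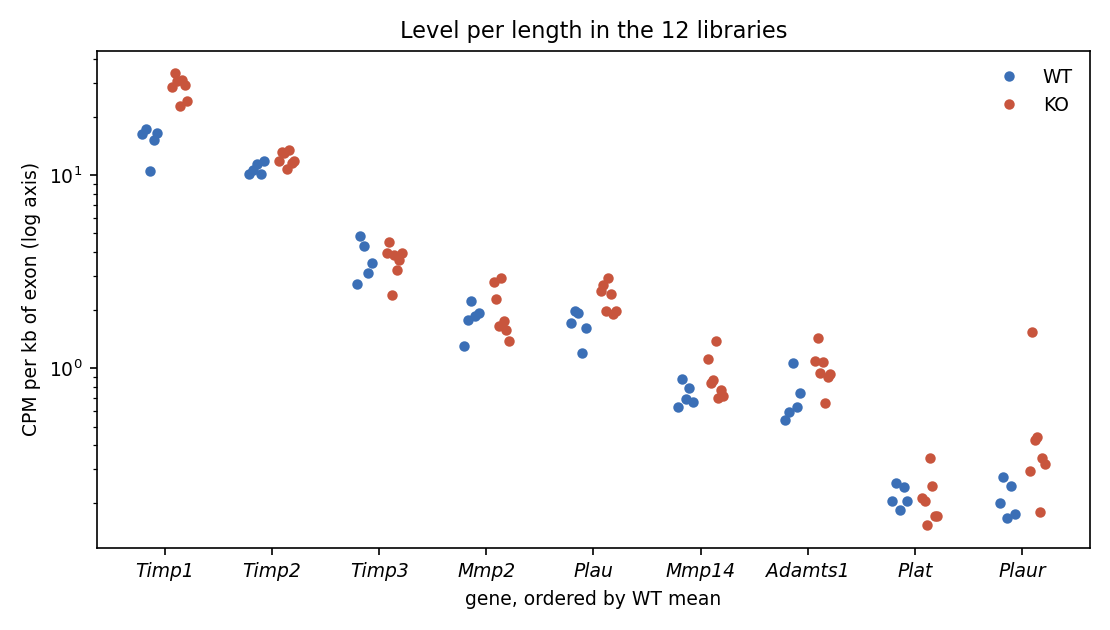
Level per length of the 9 genes in CPM per kb of exon (log axis), ordered by the WT mean, with 1 point for each of the 5 WT and 7 KO libraries. In WT the 3 Timps lie above the proteases and Plaur, and in KO the Timp1 points lie clear of the Timp2 points.

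Between KO glands, no pair of genes varied together or in opposite directions past the adjusted threshold. Over the 7 KO libraries 36 pairs of genes were compared, of which 24 had a positive and 12 a negative Pearson r. An exact permutation p under 0.05 was reached by 5 pairs, all of positive r, and 0 passed after adjustment over the 36 pairs (lowest adjusted p = 0.139). Among pairs of negative r the lowest exact permutation p was 0.179, for Timp2 with Mmp14. Mmp2 and Plau had r = 0.88 and Spearman's rho = 0.93 (exact permutation p = 0.0187 and 0.00675; adjusted p = 0.168 and 0.243), and r was 0.87 without the 2 libraries farthest from the median of Mmp2. Mmp2 and Mmp14 had r = 0.88 and rho = 0.71 (exact permutation p = 0.00774 and 0.0881; adjusted p = 0.139 and 0.529), and r was 0.52 without the 2 farthest libraries. Plat and Plau had r = 0.86 and rho = 0.75 (exact permutation p = 0.00774 and 0.0663; adjusted p = 0.139 and 0.529), and r was 0.78 without the 2 farthest.

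Timp1 and Timp2 had r = 0.84 and rho = 0.86 (exact permutation p = 0.0149 and 0.0238; adjusted p = 0.168 and 0.429), and r was 0.78 without the 2 libraries farthest from the median of Timp1. KO replicate 4 was the highest KO library for Mmp2, Mmp14, Plat and Plau and the lowest for Timp1 and Timp2. It was taken on day 11 and also had the highest skeletal muscle score (2.84) and fibroblast score (0.63). The part of these values in its levels was not tested. Plaur and Adamts1 had r = 0.88 and rho = 0.61 (exact permutation p = 0.0272 and 0.167; adjusted p = 0.196 and 0.545). Their r rests on the 2 libraries farthest from the median of Plaur, KO replicates 2 and 5, since without them it was 0.05.

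**Figure D4:**
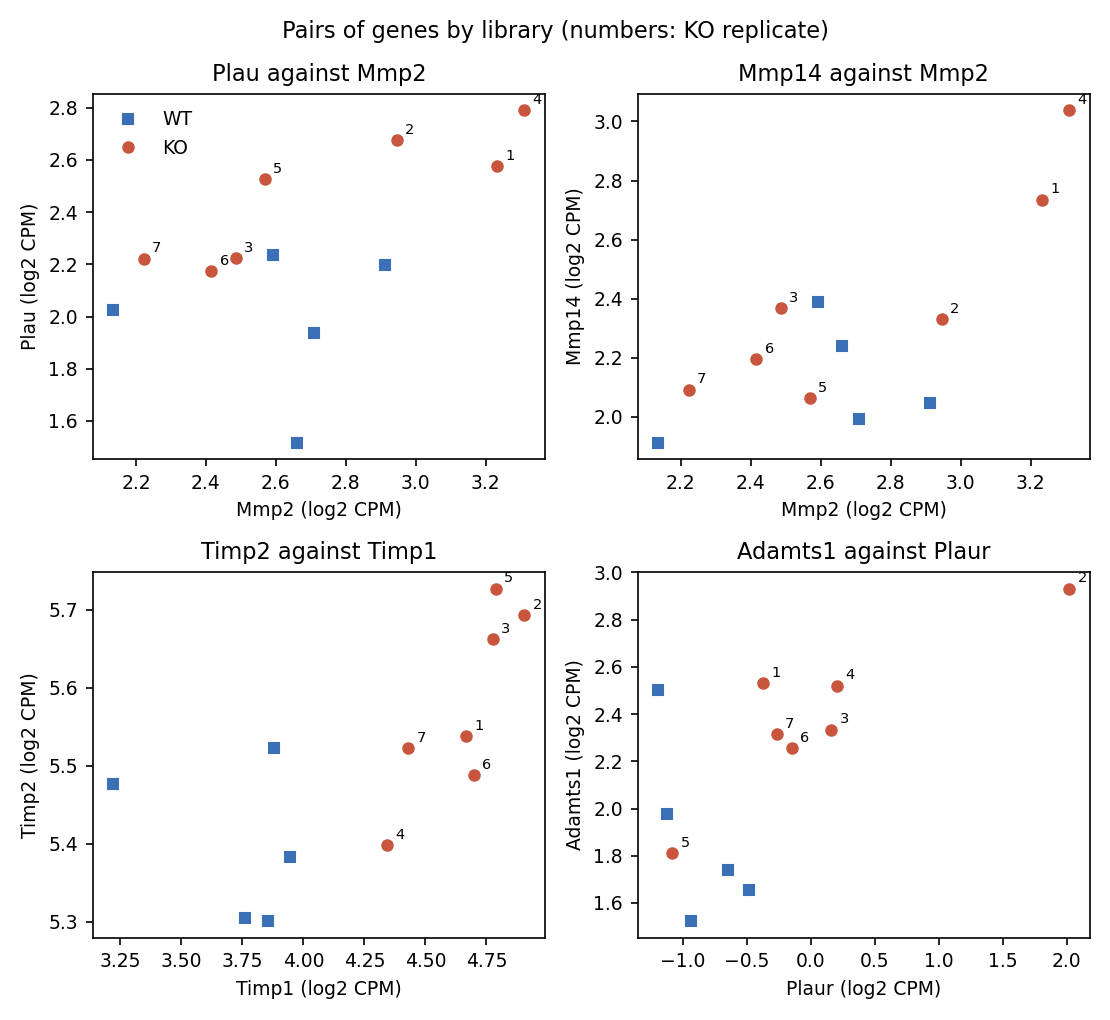
Levels of 4 pairs of genes in log2 CPM, 1 point per library, with WT as squares and KO as circles numbered by replicate. KO replicate 4 is at the top right for Mmp2 with Plau and with Mmp14 and at the bottom of the KO libraries for Timp1 with Timp2, and KO replicate 2 stands apart for Plaur with Adamts1.

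The genes most like Timp1 and Mmp2 were sought across the table. Over the deviations of the 12 libraries from their group means, among 9746 genes whose mean level was 1 log2 CPM or more, those most like Timp1 were Akt1s1 (r = 0.95, rho = 0.90), Gm13736 (r = 0.86, rho = 0.64), Gtf3c5 (r = 0.86, rho = 0.76) and Zfp787 (r = 0.84, rho = 0.82). For Timp1 and each of these genes, WT replicate 3 was the lowest WT library and KO replicate 4 the lowest KO library. Both were taken on day 11, and the part of these libraries in the likeness was not tested. Those most like Mmp2 were C2, a complement component (r = 0.95, rho = 0.92), Gsn, the actin-severing gelsolin (r = 0.93, rho = 0.90), Fgfr1, a fibroblast growth factor receptor (r = 0.92, rho = 0.91), and Ifitm2, an interferon-induced membrane protein (r = 0.91, rho = 0.87). They are the highest of many and serve as a description, and all points share the libraries and their normalization.

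Promoter sequence was held by RefSeq (GRCm38.p6) for 6 of the 9 genes, and the 250 bases before the start were searched on both strands for TGANTCA (AP-1), TTCNNNGAA (Stat) and GGGCGG (Sp1). The promoters of Timp1, Plaur and Adamts1 follow, with matches in capitals. They are shown because these genes had the largest log2 changes among the 6, of which that of Timp1 alone passed the test.
Timp1, chrX:20869916-20870165, plus strand: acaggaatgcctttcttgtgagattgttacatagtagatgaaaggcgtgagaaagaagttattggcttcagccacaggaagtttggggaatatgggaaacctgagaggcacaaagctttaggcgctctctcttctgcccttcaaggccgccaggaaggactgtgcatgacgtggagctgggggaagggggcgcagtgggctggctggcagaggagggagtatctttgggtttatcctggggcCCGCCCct
Plaur, chr7:24462233-24462482, plus strand: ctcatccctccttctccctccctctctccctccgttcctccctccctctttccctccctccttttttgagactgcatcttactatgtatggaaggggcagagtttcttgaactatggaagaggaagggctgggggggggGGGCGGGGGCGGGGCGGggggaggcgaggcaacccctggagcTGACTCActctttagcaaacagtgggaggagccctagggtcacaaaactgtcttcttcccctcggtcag
Adamts1, chr16:85803114-85803363, minus strand: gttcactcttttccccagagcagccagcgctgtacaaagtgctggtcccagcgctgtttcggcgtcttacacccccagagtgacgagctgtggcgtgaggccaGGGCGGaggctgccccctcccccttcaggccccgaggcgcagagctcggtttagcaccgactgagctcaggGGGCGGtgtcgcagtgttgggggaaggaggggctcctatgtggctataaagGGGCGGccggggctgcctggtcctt
Plaur held the sole AP-1 match of the 6 promoters, starting 69 bases before the start, and 6.75% of the 32851 promoter windows of the table hold such a match. No Stat match was found in the 6 windows, beside 7.02% of all windows. An Sp1 match stood in each of the 6, 8 bases before the start in Timp1, beside 32.7% of all windows. Of the 3 matches of Plaur, starting 111, 105 and 100 bases before the start, the first abuts the second and the second shares a base with the third. These matches are a description of the letters in these windows.

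The proteases and inhibitors that act with these genes were taken from 4 lists. Of 79 listed genes 44 were in the table, of which 9 rose in KO, 3 fell and 32 did not pass, beside 4.84% of all genes called higher and 4.52% called lower. Their median log2 change was 0.09. The counts of the single lists below stand beside these same shares of all genes.

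In the list of plasminogen system partners and serpins 6 of 14 measured genes were higher and 1 lower, and the list also holds serpins that are not known to act on plasmin or its activators. S100a10, a partner of annexin A2 in the plasminogen receptor at the cell surface, rose from 2.76 to 3.37 log2 CPM (log2 change 0.61, SE 0.11, limma adjusted p = 0.00522). St14, the membrane serine protease matriptase, rose from 6.39 to 7.04 (0.66, SE 0.12, limma adjusted p = 0.00556). For both, every KO library lay above every WT library, and no single library left out ended the call. Tmprss4, another membrane serine protease, rose from 3.90 to 4.92 (1.02, SE 0.26, limma adjusted p = 0.0297).

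Serpinb6a, an intracellular serine protease inhibitor, rose by 0.74 (SE 0.20, limma adjusted p = 0.0320) and Serpinf1, a secreted serpin without known protease inhibition, by 0.64 (SE 0.18, limma adjusted p = 0.0354). Plgrkt, a plasminogen receptor, was higher by 0.41 (limma adjusted p = 0.0460), and Prss8, a membrane serine protease that works with matriptase, was lower at a log2 change of -0.29 (limma adjusted p = 0.0497). Plgrkt and Prss8 were named after their values were seen, and both missed the threshold in the authors' deposited table (adjusted p = 0.0537 and 0.0507) and ended without any of 9 and 11 libraries (limma adjusted p of up to 0.112 and 0.122).

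Of the 7 other MMPs measured 1 rose and 1 fell. Mmp12, the macrophage elastase, rose from 1.06 to 1.75 log2 CPM (0.68, SE 0.16, limma adjusted p = 0.0204), with every KO library above every WT library, and the macrophage marker score was 0.41 higher in KO beside it. Its call ended without WT replicate 1 (limma adjusted p = 0.0522). Mmp28, an MMP known from epithelia, fell by 0.70 (SE 0.17, limma adjusted p = 0.0236), a call that ended without WT replicate 1, 2 or 3 (limma adjusted p of up to 0.0669). That call also ended with day 10 libraries alone (limma adjusted p = 0.186) and with each of the same scores (limma adjusted p from 0.11 to 0.736). Mmp3, the stromelysin of mammary stroma, was at 2.25 and 2.75 log2 CPM (0.50, SE 0.33, limma adjusted p = 0.352). Mmp25 had a log2 change of -0.33 and Mmp19 of 0.15, neither past the threshold.

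Of 13 other ADAM and ADAMTS proteases 1 rose and 0 fell. Adam9, a membrane sheddase, rose by 0.35 (SE 0.10, limma adjusted p = 0.0326). Adam10 and Adam15, of the same family, had log2 changes of 0.24 and 0.54 and lay just outside the threshold (limma adjusted p = 0.0533 and 0.0573). Adamts20 was at 0.59 (limma adjusted p = 0.202) and Adam17, the sheddase of tumour necrosis factor, at 0.14 (limma adjusted p = 0.294).

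Of 10 other activators and inhibitors 1 rose and 1 fell. Furin, the convertase that cuts the propeptide from Mmp14 and related enzymes, fell by 0.41 (SE 0.11, limma adjusted p = 0.0309), from 6.28 to 5.87 log2 CPM. Bsg, a membrane glycoprotein known as an inducer of MMPs, rose by 0.21 (SE 0.06, limma adjusted p = 0.0463), a call that ended without any of the 12 libraries (limma adjusted p of up to 0.105). Pcsk5, Pcsk6 and Pcolce2 had log2 changes of 0.58, -0.31 and -0.48, none past the threshold.

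The calls of Adam9, Tmprss4 and Furin each ended without any of 5 libraries. For Adam9 these were WT replicates 1, 2, 4 and 5 and KO replicate 1 (limma adjusted p of up to 0.0796). For Tmprss4 they were WT replicates 1, 2, 4 and 5 and KO replicate 4 (up to 0.0752), and for Furin WT replicates 1, 2, 3 and 5 and KO replicate 1 (up to 0.0833). The call of Serpinb6a ended without WT replicate 1, 2 or 3 or KO replicate 1 or 2 (limma adjusted p of up to 0.0886), and that of Serpinf1 without WT replicate 1, 2, 4 or 5 or KO replicate 1, 2 or 3 (up to 0.0981). With the macrophage score as a covariate none of the 12 called genes passed, and in that fit 1 gene of the table did.

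**Figure D5:**
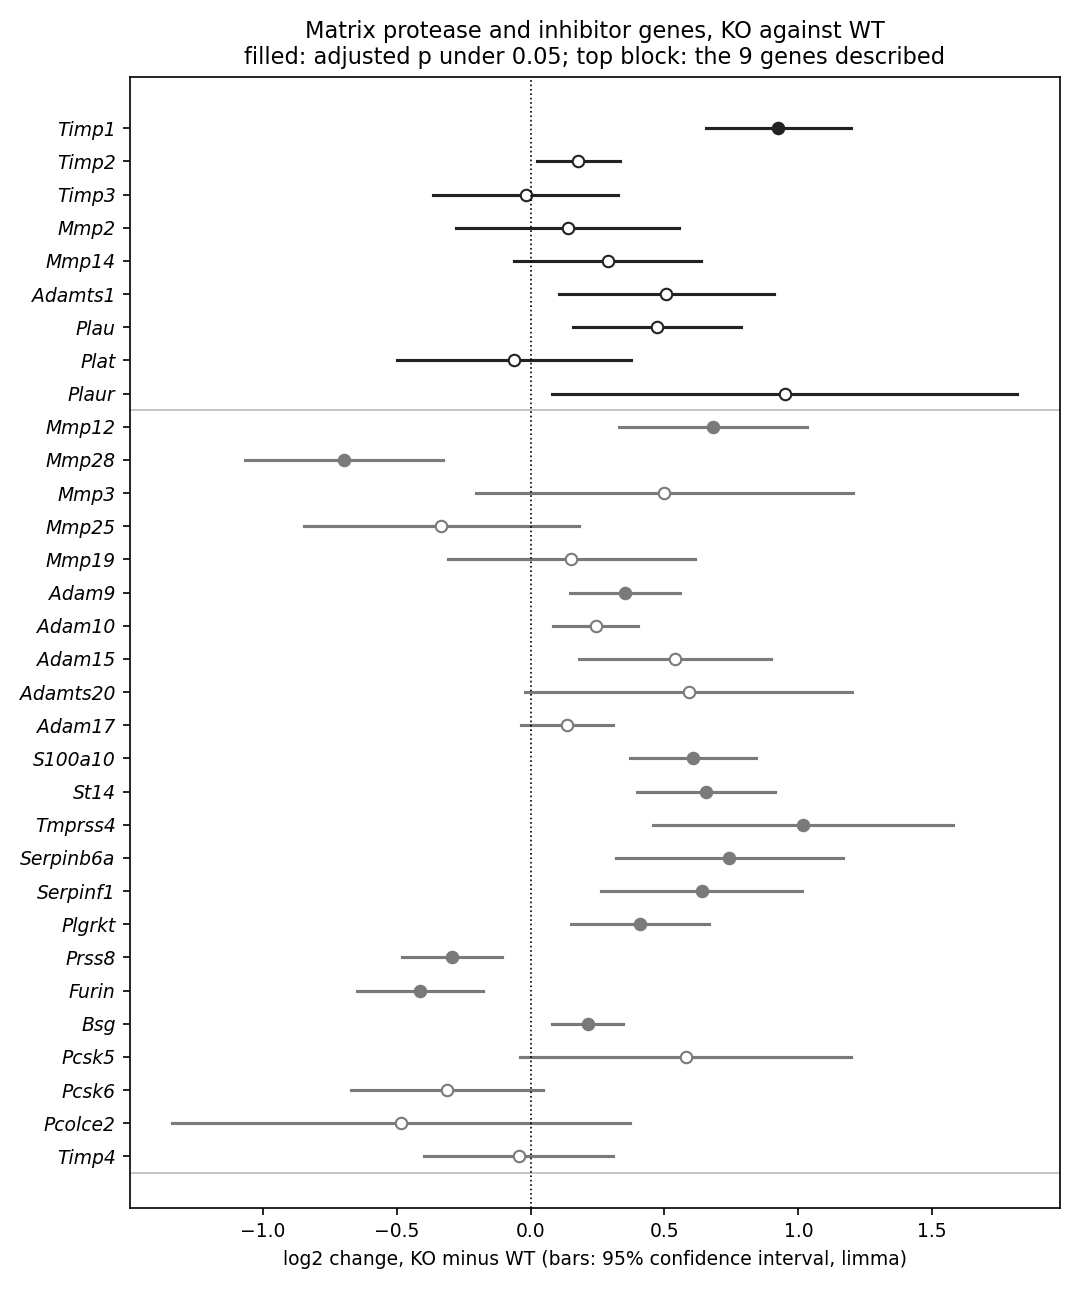
Log2 change of KO minus WT (horizontal axis) with its 95% confidence interval from limma for the 9 genes (upper block) and for the named genes of the protease and inhibitor lists (lower block). Filled points have an adjusted p under 0.05; in the upper block this is Timp1 alone, while the interval of Plaur is the widest there.

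Among 31 listed proteins that these enzymes cut or that surround them in the matrix, 30 were in the table, of which 3 rose, 1 fell and 26 did not pass, beside 4.84% of all genes called higher and 4.52% called lower, with a median log2 change of 0.12. Lamb3, a laminin chain of the epithelial basement membrane, rose by 0.83 (SE 0.08, limma adjusted p = 0.000248), with every KO library above every WT library. Lamb1, another laminin chain, fell by 0.61 (SE 0.08, limma adjusted p = 0.00151), and every KO library lay below every WT library. Tnc, the matrix glycoprotein tenascin C, rose by 0.52 (SE 0.14, limma adjusted p = 0.0326), a call that ended without WT replicate 1, 2, 3 or 4 or KO replicate 1 (limma adjusted p of up to 0.0746). Bgn, the proteoglycan biglycan, had a log2 change of 0.45 (limma adjusted p = 0.0953). Beside these genes the basal and myoepithelial marker score was 0.34 higher and the luminal epithelial score 0.36 higher in KO. The part of cell composition in these changes was not tested beyond the covariate fits.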

How the data were processed

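PolyA RNA of 12 lactating mammary glands (5 WT, 7 KO) was measured, 1 library per mouse. Groups and replicate numbers come from the sample titles. Per the submitters' processing notes the named tools are STAR 2.5.2b, RSEM 1.3.0, Trimmomatic 0.33, bcl2fastq 2.17 and limma 3.34.5 in no stated role, and the builds mm10 and hg19 are named without a role. The annotation, the strand setting and the gene filter are not stated in the labels. A table of log2 CPM per library was deposited by the authors, with their log2 fold change, a signed linear fold (a quantity of another kind, not used), a moderated t statistic as a score, and p-values. Per the file's values the deposited log2 CPM were quantile-normalized: 67.1% of ranks differed by under 0.01 log2 between the 12 libraries.

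Genotype was fitted to the log2 values with limma 3.58.1 in R 4.3.3 (eBayes with trend and robust options), with Benjamini-Hochberg adjustment over 11834 genes. Two-sided exact permutation of the group labels stands beside single values, and p-values of pairs of genes come from exact permutation of pairings. Depth was estimated as the inverse of the median step between values, from 0.5 to 8 CPM, that at least 8 genes share, so no counting interval is given. Coordinates and exon lengths come from GENCODE M21 (mm10), joined by symbol. Python 3.11.15 and matplotlib 3.10.9 were used for annotation and figures. The fit was tested on simulated data.

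Named genes were Btn1a1, all measured members, up to 5 genes of smallest p from each protease, inhibitor and matrix list, and the 4 genes most like Timp1 and Mmp2. The rule also covered the marker lists, which are given here by scores and counts alone, and a few listed genes, though counted, are not reported here by name. The members, lists and tests were chosen with earlier results of these data known. Of the marker lists not described in the report, endothelial markers gave 0 of 10 higher and 1 lower and adipocyte markers 1 of 8 higher and 0 lower. Called higher were 5 of 13 macrophage, 6 of 10 basal and myoepithelial, 1 of 12 fibroblast, 3 of 8 luminal epithelial and 0 of 15 skeletal muscle markers, beside 4.84% of all genes, and 0 of these were lower.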

Additional observations from a re-analysis of the deposited data

Results flagged for a closer look

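Timp1 in WT replicate 3 was 3.22 log2 CPM, while the nearest of the other 4 WT libraries was at 3.76, and this gap was large against the range of the group (Dixon's ratio 0.744). That library was taken on day 11. Plaur in KO replicate 2 was 2.02 log2 CPM against 0.21 in the nearest of the other 6 KO libraries (Dixon's ratio 0.584). The same library was the highest KO library for Adamts1, Timp1 and Timp3. Of 18 groups examined (9 genes in WT and in KO) these 2 stood out, while chance gives about 5% of such groups.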

How the results depend on the processing

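The count of measured members higher in KO was 1, and it was 1 to 2 when each library was left out. The additions were Plau (without KO replicate 3 or 6) and Adamts1 (without WT replicate 3 or KO replicate 5). It was 2 with lactation day as a covariate and after cyclic loess, and 0 with the macrophage score as a covariate, and 0 members were lower throughout. Timp1 kept its call in 24 of 25 alternatives. All genes called fell from 1108 to 268 with day 10 libraries alone, 295 with the skeletal muscle score, 1 with the macrophage score, 13 with the basal and myoepithelial score, 273 with the fibroblast score, 249 at an adjusted p under 0.01 and 612 where the change also had to reach 0.5 in size. Leaving out 1 library gave 559 to 1327 genes. The lowest 5 of these counts, 559, 644, 725, 696 and 724, came without WT replicate 1, 2, 3, 5 and KO replicate 1 in that order.

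The 9 other protease and inhibitor genes higher in KO became 2 with day 10 libraries alone, with the muscle or fibroblast score or at an adjusted p under 0.01, 5 without trend and robust options and 0 with the macrophage or basal score. Their number ran from 2 to 9 when each library was left out, with 2 without WT replicate 1, 4 without WT replicate 2, 4 or 5 and 5 without KO replicate 1 or 2. The 3 lower became 1 without trend and robust options and where the change also had to reach 0.5 in size, and 0 with day 10 libraries, any of the 4 scores or an adjusted p under 0.01. They ran from 0 to 3 when each library was left out, with 0 without WT replicate 1, 2 or 3 and 1 without WT replicate 5 or KO replicate 1. The 3 matrix genes higher became 0 with the macrophage and 1 with the basal score, and 2 to 5 when each library was left out (5 without KO replicate 6). The 1 lower became 0 with either score.

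Of the genes that had not passed, some turned direction. Timp3 was 0.0053 with lactation day, 0.30 with day 10 libraries and 0.10 with the macrophage score, and ran from -0.12 to 0.087 when each library was left out. Mmp2 was -0.079, -0.36, -0.18 and -0.15 with the muscle, macrophage, basal and fibroblast scores. Mmp14 was -0.10, Mmp3 -0.52 and Pcolce2 0.82 with the macrophage score. Plat ran from -0.18 to 0.012, Mmp19 from -6.9e-05 to 0.30 and Timp4 from -0.16 to 0.070 when each library was left out, and Timp4 was 0.20 with day 10 libraries. The cause was not tested.

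With the replicate number as a block, 1083 genes were called, 1 member was higher, 10 protease genes were higher and 3 lower, 4 matrix genes were higher and 1 lower. In that replicate block Plat was 0.048. The numbers name separate mice, deviations of same-numbered libraries correlated at -0.17 to 0.21, and 2 of 5 WT libraries correlated best with the KO library of their own number. Pseudocounts do not apply to log2 values, Plat and Plaur fall below the filter of at least 1 log2 CPM, and counts that would show the precision of low genes such as Plaur were not used here.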
